A study of Canis lupus familiaris with 32 samples.

Results

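HSP90AA1 and HSP90AB1, the cytosolic HSP90 chaperones, were followed across 32 canine osteosarcomas. The members were all probes whose platform annotation gives one of these symbols, which were 2 of 5246 named genes and 7 of the 22176 probes on the array: 3 for HSP90AA1 (probes 2580, 7328 and 20239) and 4 for HSP90AB1 (probes 3771, 20426, 20877 and 21481). None of the 7 had a missing value. The tumors were primary osteosarcomas, nearly all of bone with an extraskeletal site among them, from dogs that had no therapy before surgery. Short survivors (SS, 16 tumors, numbers 1 to 16) lived less than 6 months after diagnosis and long survivors (LS, 16 tumors, numbers 17 to 32) lived longer. RNA of each tumor and a reference pool made from all 32 tumors were labeled with different dyes and hybridized together on a cDNA array, with the tumor in Cy5 on 16 arrays and in Cy3 on 16, 8 of each per survival group. The study further split SS into subgroups B and A, 8 tumors each, by clustering these same arrays. Chemotherapy after surgery was given to 9 of 16 SS and 12 of 16 LS dogs, a high grade was recorded for 13 SS and 12 LS tumors, and each group held 9 males and 7 females. The labels themselves give no age or treatment. Each tumor was 1 sample, so that technical and biological spread cannot be separated, and a whole tumor holds tumor cells together with stroma and blood.

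HSP90 is a chaperone that binds ATP, closes around partly folded client proteins such as kinases and steroid receptors, and releases them in an active form with the help of co-chaperones. HSP90AA1 encodes the alpha form, whose gene is induced by heat and other stress through the heat shock factor HSF1, and HSP90AB1 encodes the beta form, which most cells make constitutively. HSP90B1 and TRAP1 are the paralogs of the endoplasmic reticulum and of mitochondria. Osteosarcoma is a bone-forming tumor with many chromosomal gains and losses, and several HSP90 clients drive growth in such tumors.

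All values are log2 ratios of tumor over pool, so that 0 is the level of the pool and 1 is a doubling. They compare tumors for a given probe and do not say which of the 2 genes had more mRNA. The pool held the same tumors, which also means that a ratio cannot show whether a marker gene was expressed at all. Array medians lay between -0.03 and 0.02, and the SD over probes between 0.474 and 0.762. The orientation of the dyes moved 14271 probes (64.4%) past an adjusted p of 0.10, and the per-probe means of the Cy5 and Cy3 arrays correlated at -0.658. Within 1 orientation no pair of arrays correlated below 0, the lowest being 0.0242 for Cy5 and 0.00406 for Cy3. For the 7 HSP90 probes the tumor in Cy5 minus tumor in Cy3 difference lay between -0.16 and 0.50, and 0 of 7 passed the threshold (smallest adjusted p = 0.167 in limma).

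HSP90AA1 was the form with the wider difference by survival. On probe 2580 SS tumors ranged from -0.89 to 1.48 with a median of -0.14, against -1.28 to 0.39 with a median of -0.34 in LS tumors. On probe 20239 SS tumors ranged from -0.97 to 1.75 (median -0.10), against -1.65 to 0.64 (median -0.48) in LS tumors. On probe 7328 SS tumors ranged from -1.39 to 1.73 (median -0.13), against -2.91 to 0.21 (median -0.84) in LS tumors. The groups overlapped on all 3 probes. The same tumors lay at the ends each time: SS tumors 13 and 11 at the top, LS tumor 23 at the bottom, and LS tumor 27 highest among the long survivors.

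Averaged over the 3 probes, HSP90AA1 stood at 0.01 ± 0.66 in SS and -0.65 ± 0.63 in LS (SD, n = 16 each). The difference of 0.66, a ratio of 1.58-fold, had a 95% interval of 0.20 to 1.13, and 13 of the 16 SS tumors lay above the LS mean. By probe the difference was 1.03 for probe 7328 (SE 0.32, p = 0.00274), 0.57 for probe 20239 (SE 0.20, p = 0.00858) and 0.39 for probe 2580 (SE 0.19, p = 0.0483) in the limma fit to all probes. None of these passed after Benjamini-Hochberg adjustment over all probes, with adjusted p = 0.492, 0.561 and 0.695. Over the whole array limma called 0 of 22176 probes (0%) at an adjusted p under 0.10, while 1581 probes (7.13%) had an unadjusted p under 0.05, 805 of them (3.63%) with SS higher and 776 (3.5%) with SS lower. All 3 HSP90AA1 probes and 0 of 4 HSP90AB1 probes were among these 805. The HSP90-alpha clone belongs to the genes that the study selected on these arrays, so that the HSP90AA1 difference is not independent evidence of its direction. In whole tumors, fewer cells of a type and less RNA per cell cannot be told apart.

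HSP90AB1 gave smaller differences. On probe 3771 SS tumors ranged from -1.51 to 0.49 (median 0.02), against -1.59 to 1.49 (median -0.45) in LS tumors. On probe 20877 SS tumors ranged from -1.26 to 0.38 (median -0.11), against -1.28 to 1.89 (median -0.44) in LS tumors. Long survivors thus held the highest values as well as most of the lowest, and the LS range enclosed that of SS on both probes. On probe 21481, where LS tumors lay between -0.99 and 1.72, the lowest value was instead the -1.30 of SS tumor 7. Probe 20426 lay between -1.17 and 0.68 in SS, against -1.38 and 1.81 in LS.

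Averaged over the 4 probes, HSP90AB1 stood at -0.16 ± 0.42 in SS and -0.33 ± 0.84 in LS (SD, n = 16 each). These means differed by 0.17, with a 95% interval of -0.31 to 0.65. By probe the differences were 0.35, 0.25, 0.10 and -0.04 for probes 3771, 20426, 20877 and 21481, with adjusted p between 0.811 and 0.971 in limma. The interval ends just below the difference of HSP90AA1, and equal levels in SS and LS were not shown. The probe with the widest difference, 3771, also had the highest correlations of the 4 with the HSP90AA1 probes (r = 0.40 to 0.55).

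**Figure D1:**
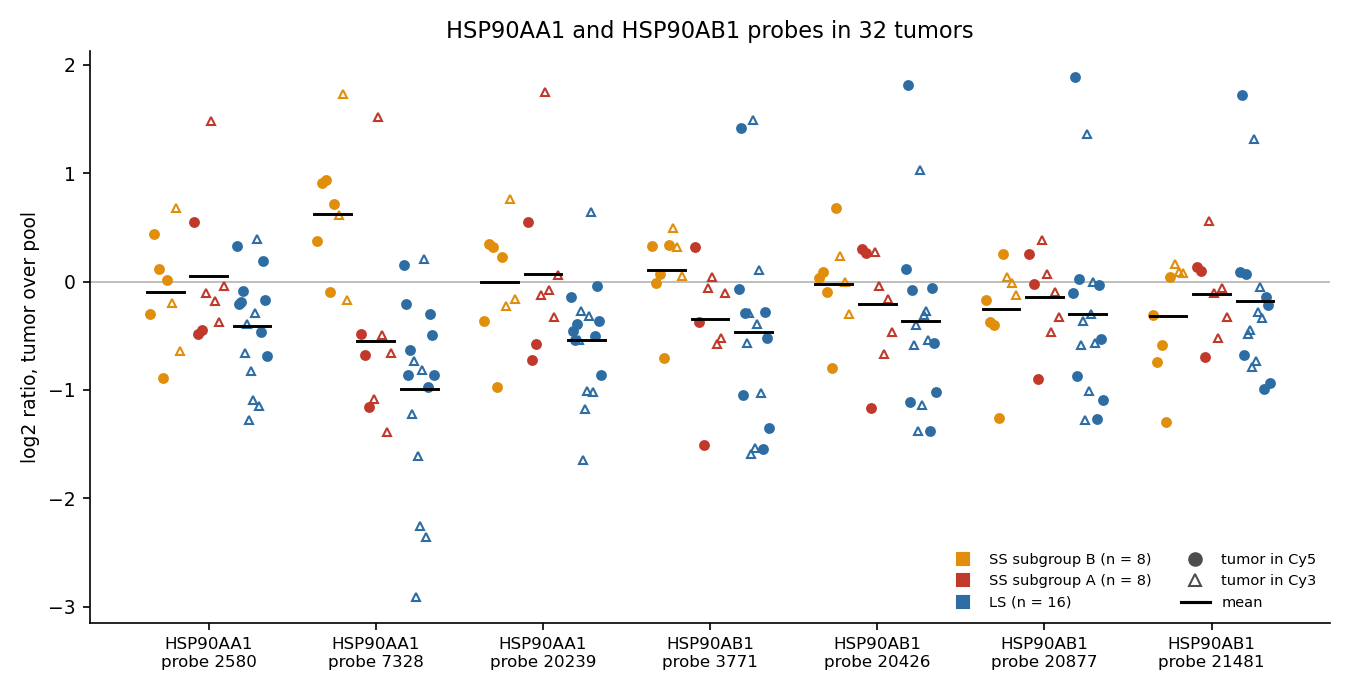
Log2 ratio of tumor over pool (vertical axis) of the 7 HSP90 probes (horizontal axis) in SS subgroup B, SS subgroup A and LS tumors, each symbol 1 tumor (filled circles Cy5, open triangles Cy3) and black lines the means. HSP90AA1 probes lay lowest in LS, with means of -0.41, -0.99 and -0.54, while 2 LS tumors stood above all others on the 4 HSP90AB1 probes.

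The HSP90AA1 difference was also estimated within each of the 2 dye orientations, which each held 8 SS and 8 LS tumors. Among LS dogs, most tumors on Cy5 arrays came from males and most on Cy3 arrays from females. Among SS dogs the sexes were more even in both orientations. A gap between the orientations can therefore not be told apart from one between the sexes of LS dogs. In the Cy3 arrays the mean of the HSP90AA1 probes was 0.10 ± 0.80 in SS and -0.93 ± 0.75 in LS (SD, n = 8 each), a difference of 1.03 (95% interval 0.20 to 1.86). In the Cy5 arrays it was -0.07 ± 0.53 in SS and -0.36 ± 0.30 in LS (SD, n = 8 each), a difference of 0.30 (95% interval -0.17 to 0.76). Probe 2580 differed by 0.74 in Cy3 and by 0.04 in Cy5, and probe 7328 by 1.47 in Cy3 and by 0.59 in Cy5. The direction was thus the same in both orientations for all 3 probes, with smaller estimates in Cy5. The test between the orientations, given below, did not call any HSP90 probe. No HSP90 probe was called within either orientation, although limma called 1311 probes (5.91%) in Cy5 and 2129 probes (9.6%) in Cy3, and the smallest adjusted p was 0.105 for probe 7328 in Cy3. In the Cy3 arrays all 3 HSP90AA1 probes had an unadjusted p under 0.05 with SS higher (0.0106 to 0.0213), as did 7.88% of all probes.

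The test of the difference between the orientations, the interaction term, called 2384 probes (10.8%) but 0 of 7 HSP90 probes. The closest was probe 2580, whose Cy5 minus Cy3 difference of -0.70 (SE 0.36) had p = 0.0612 and an adjusted p of 0.276. With the orientation as a block limma called 94 probes (0.424%), again 0 of 7 HSP90 probes, and the adjusted p of the HSP90AA1 probes became 0.162, 0.226 and 0.35. Significance Analysis of Microarrays (SAM), the permutation method of the study, was rebuilt at a false discovery rate of 10% and called 116 probes (0.523%), 115 of them higher in SS (0.519%), among them probe 7328 and no other HSP90 probe. With other random seeds the total fell between 39 and 74 probes, and probe 7328 was called each time.

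**Figure D2:**
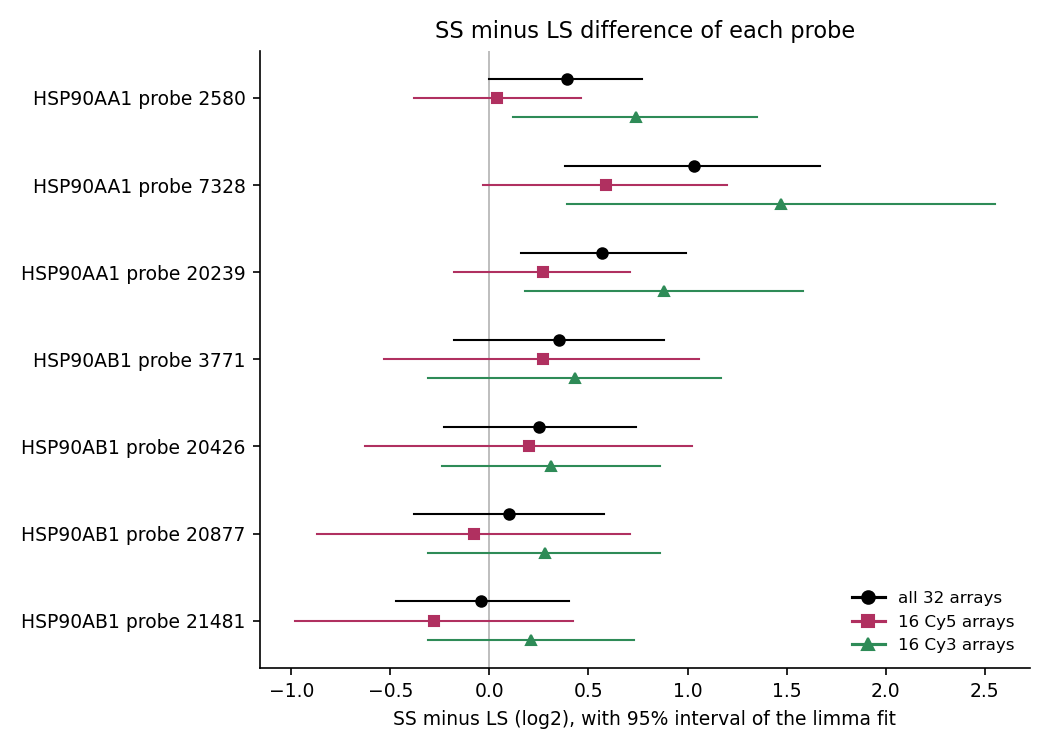
SS minus LS difference in log2 units (horizontal axis) of each HSP90 probe (vertical axis) with the 95% interval of the limma fit, over all 32 arrays (circles), the 16 Cy5 arrays (squares) and the 16 Cy3 arrays (triangles). The HSP90AA1 probes lay between 0.39 and 1.03 over all arrays and the HSP90AB1 probes between -0.04 and 0.35, with intervals of the HSP90AB1 probes that all include 0.

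The inducible and the constitutive form were then contrasted inside each tumor, as HSP90AA1 mean minus HSP90AB1 mean. SS tumors ranged from -0.72 to 1.59 with a median of 0.05, against -2.51 to 0.65 with a median of -0.12 in LS tumors. The mean was 0.18 ± 0.62 in SS and -0.32 ± 0.86 in LS (SD, n = 16 each), a difference of 0.50 whose 95% interval of -0.05 to 1.04 includes 0. A larger shift of HSP90AA1 than of HSP90AB1 with survival was therefore not separated from the spread between tumors. It was 0.27 (95% interval -0.45 to 0.99) in the Cy5 arrays and 0.72 (95% interval -0.17 to 1.61) in the Cy3 arrays.

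A few tumors carried much of this contrast. SS tumor 13 had an HSP90AA1 mean of 1.58, the highest of all, beside an HSP90AB1 mean of -0.01. LS tumor 18 had an HSP90AB1 mean of 1.71 beside an HSP90AA1 mean of -0.29, and LS tumor 24 had an HSP90AB1 mean of 1.30 beside an HSP90AA1 mean of -1.21. The next highest HSP90AB1 mean in any tumor was 0.33, in SS tumor 8. Tumors 18 and 24 had opposite dye orientations, Cy5 and Cy3.

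Without tumors 18 and 24 the HSP90AB1 mean was -0.16 ± 0.42 in SS (SD, n = 16) and -0.59 ± 0.47 in LS (SD, n = 14), a difference of 0.43 with a 95% interval of 0.10 to 0.76. All 4 HSP90AB1 probes were then higher in SS, by 0.62, 0.51, 0.37 and 0.21, with adjusted p in limma between 0.531 and 0.796. The contrast of the 2 forms shrank to 0.22 (95% interval -0.19 to 0.63). HSP90AA1 differed by 0.65 in these 30 tumors (95% interval 0.16 to 1.14), much as in all 32. Leaving out tumor 13 moved the contrast to 0.40 (95% interval -0.12 to 0.93). These tumors were left out because of their values, and the results without them are descriptions.

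**Figure D3:**
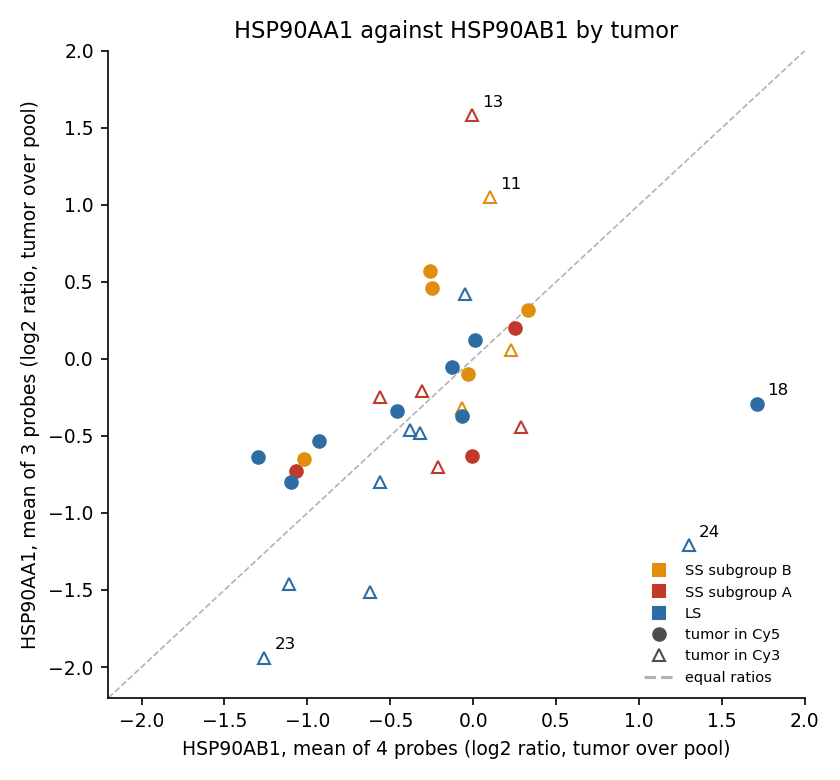
Mean log2 ratio of the 3 HSP90AA1 probes (vertical axis) against that of the 4 HSP90AB1 probes (horizontal axis), 1 symbol per tumor, with the line of equal ratios and 5 tumors numbered. LS tumors 18 and 24 lie far to the right at 1.71 and 1.30, SS tumor 13 at the top at 1.58, and the other tumors follow the line loosely.

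The probes of each gene followed one another closely. After centering within the dye orientation, the 3 pairs of HSP90AA1 probes correlated at 0.80 to 0.96 over the 32 tumors and the 6 pairs of HSP90AB1 probes at 0.81 to 0.96, against 0.13 to 0.55 for the 12 pairs across the genes. The gene means as deposited correlated at r = 0.36 (Spearman's rho = 0.57). Without tumors 18 and 24, the 2 farthest from the median of HSP90AB1, r was 0.66. It was 0.42 in SS and 0.34 in LS, and 0.46 in the Cy5 and 0.38 in the Cy3 arrays. These correlations are descriptions, since the points share the pool and the processing of their arrays.

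Probe 7328 was the exception among the HSP90AA1 probes, though by correlation only in SS tumors. Over all tumors it correlated at 0.80 and 0.84 with probes 2580 and 20239, which correlated at 0.96 with each other. As deposited, the correlations of probe 7328 with probes 2580 and 20239 were 0.63 and 0.65 in SS and 0.95 and 0.89 in LS. Those 2 probes correlated with each other at 0.97 in SS and 0.91 in LS. Probe 7328 also had the largest difference between SS and LS. A PON1 probe (15289) followed it at r = 0.99, with an SD of their difference of 0.20, and an NCAPD2 probe (18346) followed at r = 0.98. PON1 encodes a serum paraoxonase and NCAPD2 a condensin subunit, neither known as a chaperone. The other 4 PON1 probes correlated with probe 7328 at -0.04 to 0.29, which leaves the identity of the transcript behind probes 7328, 15289 and 18346 uncertain. Without probe 7328 the HSP90AA1 mean was 0.00 ± 0.61 in SS and -0.48 ± 0.51 in LS (SD, n = 16 each), a difference of 0.48 with a 95% interval of 0.07 to 0.88. The contrast with HSP90AB1 was then 0.31 (95% interval -0.21 to 0.84).

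Between the SS subgroups the 3 HSP90AA1 probes parted. Membership came from the study's survival curves and times, and the study's clustering used an HSP90-alpha clone, so the values are descriptions without a test. Tumors 6 and 8 had the same survival time, so survival alone does not place them. With tumor 6 in subgroup A and tumor 8 in subgroup B, sex and grade match the study's counts for each subgroup. On probe 7328 subgroup B averaged 0.63 ± 0.61 and subgroup A -0.55 ± 0.90 (SD, n = 8 each), while LS averaged -0.99 ± 0.89 (SD, n = 16). The other probes gave no such step: probe 2580 averaged -0.10 ± 0.52 in subgroup B and 0.05 ± 0.66 in subgroup A, and probe 20239 averaged -0.01 ± 0.53 in subgroup B and 0.07 ± 0.79 in subgroup A. Adjusted for the dye orientation, subgroup B minus subgroup A was 1.09 (SE 0.42) for probe 7328, against -0.19 (SE 0.28) for probe 2580 and -0.06 (SE 0.31) for probe 20239. Of all probes, 0.492% had an unadjusted difference at least as high as the 1.18 of probe 7328. Because the clustering that made the subgroups used an HSP90-alpha clone, this share is no evidence of a difference.

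The step lay in the distance of probe 7328 from the other HSP90AA1 probes. Probe 7328 minus the mean of the other 2 was above 0 in 8 of 8 subgroup B tumors (0.23 to 1.01, median 0.71) and in 0 of 8 subgroup A tumors (-1.04 to -0.08, median -0.65). It was above 0 in 2 of 16 LS tumors (-1.44 to 0.12, median -0.45). Subgroup A lay within the range of LS in this measure, and subgroups B and A did not overlap. Probe 7328 was singled out after its values were seen, and the clustering behind the subgroups used an HSP90-alpha clone and a PON1 clone. How many other probes part the subgroups in this way was not counted. The separation is therefore a description and no evidence about HSP90AA1. By dye orientation subgroup B averaged 0.67 in Cy5 and 0.69 in Cy3, against -0.58 in Cy5 and -0.63 in Cy3 in subgroup A.

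**Figure D4:**
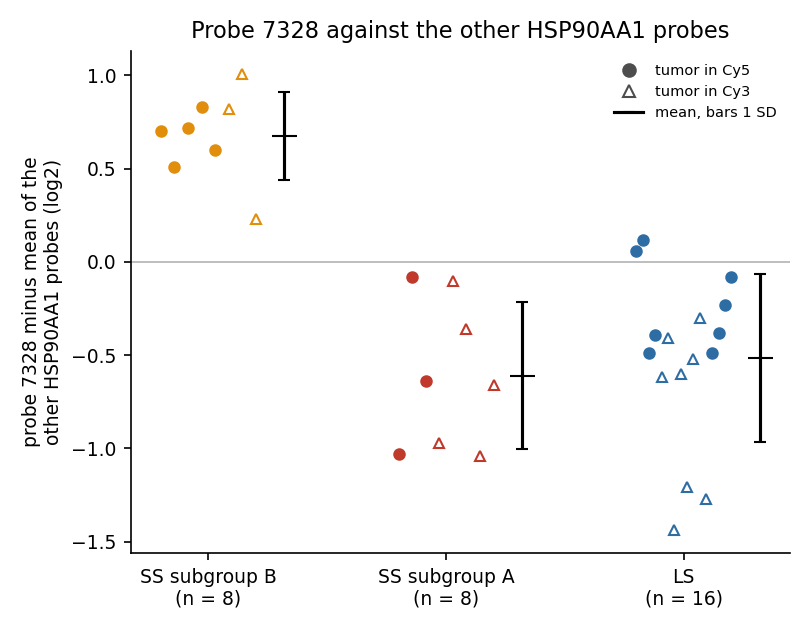
Probe 7328 minus the mean of the other 2 HSP90AA1 probes in log2 units (vertical axis) in SS subgroup B, SS subgroup A and LS (horizontal axis), each symbol 1 tumor, with the mean and bars of 1 SD beside each group. Subgroup B lies between 0.23 and 1.01, subgroup A between -1.04 and -0.08, and LS between -1.44 and 0.12.

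HSP90AB1 did not step in this way. Its mean was -0.12 ± 0.42 in subgroup B and -0.20 ± 0.45 in subgroup A (SD, n = 8 each), with a dye-adjusted difference of 0.10 (SE 0.35). The probes disagreed in sign, from 0.46 for probe 3771 to -0.21 for probe 21481 as deposited. The contrast of the 2 forms was 0.30 ± 0.48 in subgroup B and 0.06 ± 0.75 in subgroup A, within 1 SD of each other. In subgroup B, tumor 7 was the lowest on all 4 HSP90AB1 probes, with a mean of -1.02.

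The genes most like the HSP90 probes differed between the 2 forms. For probe 2580 the highest correlations over the 32 tumors among named probes were with MTHFD1, an enzyme of folate metabolism (r = 0.84), AHSA1 (r = 0.84) and NCAPD2 (r = 0.83). AHSA1 is the co-chaperone that stimulates the ATPase of HSP90. For probe 20239 they were with the PON1 probe (r = 0.85), NCAPD2 (r = 0.85) and MTHFD1 (r = 0.80), and for probe 7328, after PON1 and NCAPD2, with SMC6, a subunit of a DNA repair complex (r = 0.77). AHSA1 and MTHFD1 lie on chromosome 8 like HSP90AA1 in assembly UU_Cfam_GSD_1.0, but neither is among the 40 genes on either side of it. The mean of probes 2580 and 20239 also had FKBP4 (r = 0.79), an immunophilin of HSP90 complexes with steroid receptors, among the 20 genes most like it by their best probe. The chaperones CCT6A (r = 0.78), HSPD1 (probe 15902, r = 0.75) and HSPA4 (r = 0.71) were among these 20 as well. With AHSA1 this made 5 of the 20 (25%) members of the chaperone and client lists, against 1.77% of all placed genes. With probe 7328 included, the HSP90AA1 mean had 4 of 20 (20%) in these lists. The HSP90AB1 mean had 1 of 20 (5%). Against the HSP90AA1 mean with probe 7328 included, the FKBP4 and HSPD1 probes given above correlated at 0.73 and 0.74. Other probes of FKBP4 correlated with that same mean at 0.48 and 0.61, and that of HSPD1 at 0.48.

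For all 4 HSP90AB1 probes an ASPH probe (18584, r = 0.87 to 0.94) was among the 3 most alike. ASPH encodes an aspartyl hydroxylase on chromosome 29, and its other probe correlated with HSP90AB1 at -0.27, so that the label of this match is uncertain as well. The rest included POLR1C, a subunit shared by RNA polymerases I and III (r = 0.80 to 0.87 on 3 probes). POLH, a translesion DNA polymerase (0.86), MRPS18A of the mitochondrial ribosome (0.88) and CDC5L of the spliceosome (0.79) were also among them. So were PTTG1, the securin that restrains the separation of sister chromatids (0.82), and LOC481043 (0.84). None of these genes differed between SS and LS past the threshold, with differences of -0.08 to 0.17.

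POLR1C, POLH, MRPS18A and CDC5L are neighbors of HSP90AB1 on chromosome 12. Of the 20 genes most like the HSP90AB1 mean, 6 lay on this chromosome and 5 within 40 genes of HSP90AB1, where 3.25% of all placed genes lie on the chromosome. The 24 genes with a probe within 40 genes had a median r of 0.29 with HSP90AB1, against 0.01 for the other genes of the chromosome and 0.03 for genes of other chromosomes. With r averaged over a gene's probes, 9 of the 24 (37.5%) reached at least 0.5, against 2.9% of genes on other chromosomes. With the best probe of each gene it was 12 of 24 (50%), against 4.65%. Around HSP90AA1 the 23 genes with a probe within 40 genes had a median r of 0.11, against 0.15 for the other genes of chromosome 8 and 0.04 for genes of other chromosomes, and 3 of 23 (13%) reached an averaged r of at least 0.5, against 3.97%.

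Tumors 18 and 24 again stood at the top. The median of the 24 neighbors, centered within the dye orientation, was 0.53 in tumor 18 and 0.41 in tumor 24, and the next highest was 0.14. MRPS18A was 1.96 in tumor 18 and 0.84 in tumor 24, against -0.78 to 0.56 in the other 30 tumors. POLR1C (probe 6601) was 1.06 and 1.10 in these tumors, against -0.69 to 0.49, and CDC5L was 0.70 and 0.64, against -0.55 to 0.39. VEGFA, the angiogenic growth factor encoded 6 genes away, was 1.11 in tumor 18 and 0.48 in tumor 24, against -0.69 to 0.72, so that tumor 24 lay inside the range of the others. Of the 31 probes of the neighbors, 11 (35.5%) were highest in precisely these 2 tumors, as were all 4 HSP90AB1 probes, against 1.33% of the other probes on chromosome 12 and 0.095% of the probes on other chromosomes.

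Without tumors 18 and 24 the median r of the neighbors was 0.12, and 4 of the 24 kept an r of at least 0.5, against 5.19% of genes on other chromosomes. POLR1C (0.62 and 0.65 on its probes), POLH (0.67), MRPS18A (0.62) and CDC5L (0.66) remained above 0.5, while VEGFA was at 0.14. DNA copy number was not analysed here, and its part in these values was not tested.

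**Figure D5:**
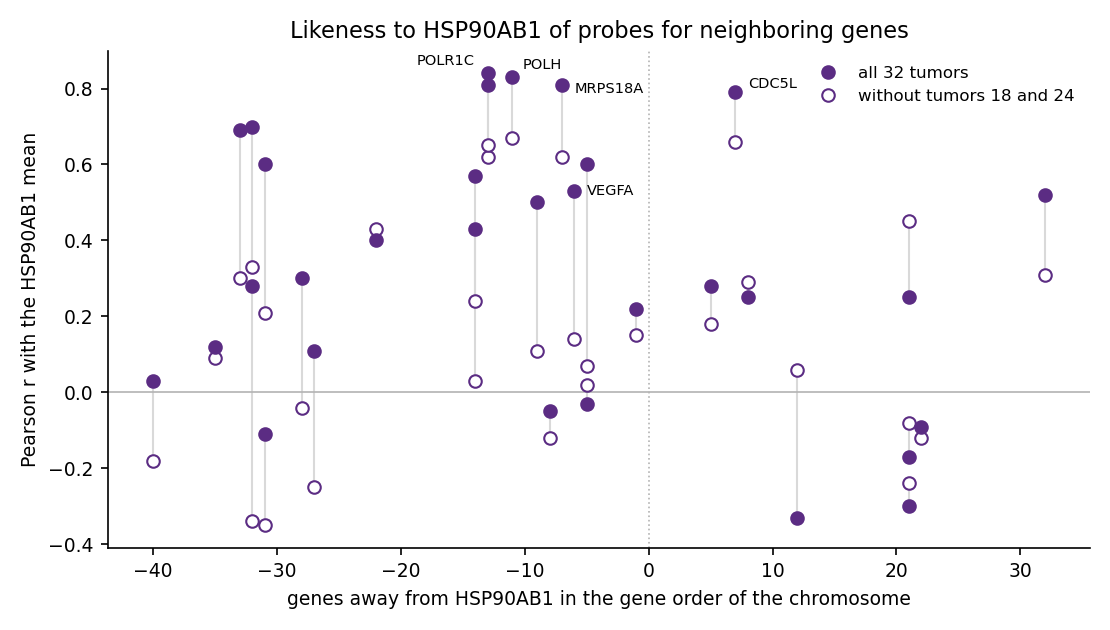
Pearson r with the HSP90AB1 mean, centered within the dye orientation (vertical axis), of the 31 probes for genes within 40 genes of HSP90AB1, by distance counted in genes (horizontal axis), over all 32 tumors (filled) and without tumors 18 and 24 (open). POLR1C, POLH, MRPS18A and CDC5L lie at 0.79 or above in all tumors and between 0.62 and 0.67 without these 2.

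The wider HSP90 system was read on 143 probes in 8 lists. Limma called 0 of the 143, and the median difference was close to the -0.00 of all probes for most lists: 0.06 for 29 probes of HSP90 co-chaperones, 0.04 for 23 of the cytosolic HSP70 system, 0.00 for 16 of heat shock factors and small heat shock proteins, 0.05 for 20 of chaperonin and prefoldin, 0.05 for 15 of the endoplasmic reticulum and 0.01 for 23 of client proteins. The mitochondrial chaperones had the highest median, 0.26 over 13 probes, of which 6 had an unadjusted p under 0.05 with SS higher. Probes with a symbol, from which the lists are drawn, had a median of 0.02, and 5.86% of them had such a p with SS higher and 2.81% with SS lower. HSPD1 and HSPA9 belong to the study's own selection, as do PON1 and SMC6, so this list too is not independent evidence. Of the other lists, 4 of 29 co-chaperone probes, 2 of 23 HSP70 system probes, 1 of 23 client probes and 1 of 4 HSP90B1 probes had an unadjusted p under 0.05 with SS higher, and 1 client probe had one with SS lower, so that the shares of clients and of the HSP70 system were below or near that of all probes with a symbol. The probes covered 21 of 38 co-chaperone genes, 15 of 37 of the HSP70 system, 6 of 10 mitochondrial chaperones and 18 of 61 clients.

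Among the partners that act on HSP90 directly, AHSA1 averaged 0.12 in SS tumors and -0.17 in LS tumors (difference 0.29, SE 0.14, adjusted p = 0.678 in limma). It was 0.65 in the Cy3 and -0.07 in the Cy5 arrays. CDC37, which delivers kinases to HSP90, differed by 0.10 (SE 0.06), and STIP1, the adaptor between HSP70 and HSP90, by 0.06 (SE 0.12). NUDCD1 (0.45, SE 0.13), SUGT1 (0.42, SE 0.16) and RPAP3 (0.29, SE 0.10) had the smallest p of the co-chaperones. SUGT1 links HSP90 to kinetochore assembly and RPAP3 to the assembly of RNA polymerases. With the orientation as a block NUDCD1 was the 1 probe of the 143 called (0.699%, against 0.424% of all probes; adjusted p = 0.0535 in limma).

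HSP90B1, the paralog of the endoplasmic reticulum, had 4 probes with a median difference of 0.12. Probe 4156 averaged 0.16 in SS tumors and -0.44 in LS tumors (difference 0.59, SE 0.23, adjusted p = 0.583 in limma), while the other 3 differed by 0.09 to 0.14. The median was 0.64 in the Cy3 and -0.20 in the Cy5 arrays, although probe 4156 was higher in SS in both, by 0.95 in Cy3 and 0.24 in Cy5. No probe has the symbol TRAP1, PTGES3, HSPA8 or HSPA1A.

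Of the HSP70 list, named cytosolic above, DNAJC3 is a J-domain protein that restrains the kinase PERK and acts largely in the endoplasmic reticulum. It was 0.19 in SS and -0.13 in LS (difference 0.32, SE 0.08, adjusted p = 0.369 in limma), though its other probe differed by 0.01. HSPA4, a nucleotide exchange factor of HSP70, differed by 0.28 (SE 0.12), DNAJC9 by 0.25 (SE 0.16), HSPH1 by 0.20 (SE 0.72, beside a dye difference of 2.58), DNAJB1 by 0.04 (SE 0.07) and BAG1 by -0.24 (SE 0.13). HSPH1 and DNAJB1 are, like HSP90AA1, classical targets of HSF1, and they correlated with it at 0.11 and -0.14. A probe with the symbol HSP70 (17670), for which RefSeq gives the synonym HSPA1, averaged -0.08 in SS and -0.67 in LS (difference 0.59, SE 0.30, adjusted p = 0.71 in limma), with 0.79 in the Cy3 and 0.38 in the Cy5 arrays. It correlated with HSP90AA1 at 0.54. LOC474850, the gene beside HSP70, had 3 probes that correlated with HSP90AA1 at 0.14, 0.66 and 0.50 and differed by 0.09, 0.36 and 0.06. Probes of HSP70 and LOC474850 are not in the lists. The HSF1 probe with the smallest p differed by -0.51 (SE 0.40), and the other 3 by -0.08 to 0.04. CRYAB (0.35, SE 0.23) and HSPB6 (-0.23, SE 0.13), both small heat shock proteins, and HSPB3 (0.39, SE 0.33) did not pass either. Their other probes differed by 0.00 to 0.32 for CRYAB, by 0.09 for HSPB6 and by -0.03 for HSPB3.

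In mitochondria HSPA9, the HSP70 of the matrix, was 0.18 in SS and -0.46 in LS (difference 0.64, SE 0.20, adjusted p = 0.502 in limma). HSPD1, the mitochondrial chaperonin, differed by 0.47 (SE 0.14), its partner HSPE1 by 0.46 (SE 0.15) and DNAJA3 by 0.26 (SE 0.16), against -0.05 and -0.14 on its other probes. On these probes HSPA9, HSPD1 and HSPE1 were higher in SS in both orientations, by 0.42 to 0.54 in Cy5 and by 0.38 to 0.76 in Cy3, and correlated with HSP90AA1 at 0.48 to 0.49. Other probes of the same genes differed less in Cy5, by 0.07 and 0.39 for HSPA9 and by 0.18 for HSPD1, against 0.85, 0.65 and 1.00 in Cy3. These other probes correlated with HSP90AA1 at 0.57, 0.52 and 0.74.

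Of the chaperonin list, CCT6A differed by 0.28 (SE 0.14) and followed HSP90AA1 at r = 0.77. TCP1 differed by 1.42 with an SE of 0.95, CCT8 by 0.29 (SE 0.20) and PFDN4 by 0.39 (SE 0.22). In the endoplasmic reticulum HSPA5, its HSP70, differed by 0.23 (SE 0.21), ERP29 by 0.24 (SE 0.21), SDF2L1 by 0.15 (SE 0.11) and DNAJC1 by 0.14 (SE 0.11). Of the clients, the receptor kinase ERBB2 was -0.08 in SS and 0.17 in LS (difference -0.26, SE 0.08, adjusted p = 0.467 in limma), and no SS tumor exceeded the mean of LS. NR3C1, the glucocorticoid receptor, was 0.15 in SS and -0.20 in LS (difference 0.35, SE 0.14), RB1CC1 differed by 0.37 (SE 0.22) and LCK by 0.23 (SE 0.11). The other NR3C1 probe differed by 0.15 and the other LCK probe by -0.04.

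Markers of other cells were read beside these values, and none passed the threshold. Among all probes with a symbol, 55.8% were higher in SS. An unadjusted p under 0.05 in limma was found for 5.86% of them with SS higher and for 2.81% with SS lower. Several of the marker probes are repeats of the same gene. Of 10 probes for 5 genes of proliferating cells, 9 were higher in SS, 2 of them with an unadjusted p under 0.05, and their mean ranged from -0.84 to 0.86 (mean 0.12) in SS, against -0.96 to 0.71 (mean -0.16) in LS. That mean correlated with HSP90AA1 at 0.47 and with HSP90AB1 at 0.53 (rho = 0.50 and 0.58; without tumors 29 and 32, 0.47 and 0.42). Of 10 probes for 4 osteoblast and bone matrix genes, 1 was higher in SS, with a median difference of -0.41, and their mean ranged from -1.98 to 1.09 in SS, against -3.63 to 1.54 in LS. It correlated with HSP90AA1 at -0.40 (rho = -0.25), at 0.16 in the Cy5 and -0.55 in the Cy3 arrays. Of 32 skeletal muscle probes 2 were higher in SS (mean level -0.65 to 1.23, against -0.64 to 1.58 in LS), and 2 had an unadjusted p under 0.05 with SS lower. Of 5 cartilage probes 0 were higher in SS (-2.17 to 1.02, against -2.31 to 2.32 in LS), and their mean correlated with HSP90AA1 at -0.35 (rho = -0.32), at 0.05 in the Cy5 and -0.48 in the Cy3 arrays. The 1 osteoclast probe, for cathepsin K, averaged -0.11 in SS and -0.55 in LS and correlated with HSP90AA1 at -0.39 (rho = -0.31). That correlation was -0.60 in SS and -0.50 in LS, -0.10 in the Cy5 and -0.55 in the Cy3 arrays, and -0.18 without tumors 13 and 30. Leukocyte markers were higher in SS on 10 of 12 probes (-0.80 to 1.61, against -0.73 to 0.61) and endothelial markers on 5 of 12 (-0.37 to 0.88, against -0.38 to 0.54). These are among 15 relations between the HSP90 genes, or the 2 genes and the marker levels, that were looked at. Erythroid markers had no probe, and the part of these cells in the HSP90 differences was not tested.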

How the data were processed

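The deposited values were log2 ratios of tumor over pool for 32 arrays. The authors had removed bad spots, normalized each print tip by Lowess, taken logarithms and reversed the sign where the dyes were swapped. The base of the logarithm is not given in the sources used here and was taken as 2, so that fold values rest on it. The direction, tumor over pool, follows the stated switching. Signals and spot depths were not analysed here, and the number of arrays limits the precision. Symbols came from the platform annotation (7694 probes with 1 symbol, 5246 genes), and gene order from RefSeq, assembly UU_Cfam_GSD_1.0, which placed 7632 of these probes. No sequences were used.

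The main test of SS against LS was a two-sided limma fit without covariates (version 3.58.1, R 4.3.3). Its p-values were adjusted by the Benjamini-Hochberg method over 22176 probes, and the threshold was 0.10. Gene means over probes were compared with 95% intervals and no p. SAM used 100 permutations, after the 5 missing values had been filled from the 10 nearest probes, and single probes had permutation tests with 100000 resamples (SciPy 1.17.1, NumPy 2.4.6, Python 3.11.15). Alternatives were the dye orientation as a block, each orientation alone, other scalings, array weights, imputation, clinical covariates (sex, chemotherapy and grade), SAM, the Cy3 sign turned and leaving out tumors. Limma, the block, the interaction and SAM were run on simulated data with independent normal noise for each probe. Such data lack the correlation between real probes, and no result here rests on them. Correlations were taken after centering each probe within its dye orientation, except those of gene and marker means. The members, lists and tests were chosen with earlier results of these data known. Named genes were all member probes, up to 4 genes per chaperone list with the smallest p, the main HSP90 partners (HSP90B1, TRAP1, STIP1, AHSA1, CDC37, PTGES3, HSPA8, HSPA1A, HSPH1, DNAJB1 and HSF1), and the 3 named genes most like each member. In the lists, a gene with several probes was given by its probe with the smallest p unless other probes are stated. FKBP4, CCT6A, HSPD1 and HSPA4 as genes like HSP90AA1, HSP70 and LOC474850, VEGFA and the other neighbors, the other probes of PON1 and ASPH, and the tumors left out were chosen after their values were seen.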

Additional observations from a re-analysis of the deposited data

Results flagged for a closer look

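Within the survival groups, subgroups and dye orientations, 80 sets of 4 to 10 tumors were looked at for a tumor far from the rest of its set, and 18 values stood apart. About 1 set in 20 does so by chance, and the sets share tumors and probes. The 18 values came from 4 tumors.

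SS tumor 13 stood above the rest of subgroup A on HSP90AA1: among the Cy3 arrays of that subgroup with 1.48 on probe 2580 and 1.75 on probe 20239, and in the whole subgroup with 1.52 on probe 7328. Its HSP90AA1 mean of 1.58 stood apart in the Cy3 arrays and in the whole subgroup, and its HSP90AA1 minus HSP90AB1 value of 1.59 did in the subgroup. The next highest HSP90AA1 mean in subgroup A was 0.20.

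SS tumor 7 stood below the rest of subgroup B on HSP90AB1, with -0.71 on probe 3771, -1.26 on probe 20877 and a mean of -1.02, where the next lowest mean was -0.26.

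LS tumor 18 stood above the other LS tumors on Cy5 arrays for HSP90AB1, with 1.81 on probe 20426, 1.89 on probe 20877, 1.72 on probe 21481 and a mean of 1.71, beside an HSP90AA1 minus HSP90AB1 value of -2.01. LS tumor 24 did so among the Cy3 arrays, with 1.03 on probe 20426, 1.32 on probe 21481 and a mean of 1.30, beside an HSP90AA1 minus HSP90AB1 value of -2.51.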

How the results depend on the processing

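Under dye block, 1 orientation, centering, quantile or deviation scaling, array weights, imputation and clinical covariates, 0 of 7 HSP90 probes were called, and SAM called 1, probe 7328, in each of 10 random seeds while its total ran from 39 to 116 probes. Single-probe permutation tests gave p = 0.00362, 0.0095 and 0.054 for probes 7328, 20239 and 2580. With the sign of the Cy3 arrays turned, against the stated switching, the HSP90AA1, HSP90AB1 and contrast differences were -0.37, -0.14 and -0.23. Of the 143 list probes 1 was called with the block, 5 in the Cy5 arrays (3.5%, against 5.91% of all probes) and 16 in the Cy3 arrays (11.2%, against 9.6%). The HSP90B1 median was 0.64 in Cy3. Leaving out 1 tumor at a time, 0 probes were called, the HSP90AA1 difference ran from 0.56 to 0.73, that of HSP90AB1 from 0.10 (without tumor 23) to 0.30 (without tumor 18), and the contrast from 0.35 (without tumor 24) to 0.56. The alternatives without tumor 13, without tumors 18 and 24 and without probe 7328 were chosen after seeing the data. No paired analysis was possible because the groups share no replicate numbers.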
